A study of Mus musculus with 12 samples.

Results

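The Hox gene clusters of the mouse hold the homeobox genes that set position along the body axis, and their chromatin accessibility was followed by ATAC-seq through reprogramming of fibroblasts to induced pluripotent stem cells. The members were 38 Hoxa, Hoxb, Hoxc and Hoxd genes, and 1 further gene with the 3 regions nearest to it was not analysed here. Every counted region that overlapped the span from the first to the last of these genes in a cluster, with 10 kb on each side, was taken once, which gave 76 regions of the 115000 in the series. The HoxA window held 19 regions, the HoxB window 20, the HoxC window 18 and the HoxD window 19. Each region was also given to its nearest Hox gene. That left 33 of the 38 genes with at least 1 region, and Hoxb1, Hoxb7, Hoxc9, Hoxc11 and Hoxd4 with none.

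ATAC-seq cuts open chromatin with a transposase, so a read count here measures accessibility near a gene and not its transcription. There were 4 groups of 3 libraries, all from cells of mixed C57BL/6 x 129 background: mouse embryonic fibroblasts (MEF), Stage 1 cells at day 6 of reprogramming, Stage 2 cells taken 4 days after that day 6, and established iPSCs. The MEFs were unsorted. Cells of the other 3 groups had been sorted as positive for Oct4-GFP, a reporter of the pluripotency gene Oct4, so sorting and stage cannot be told apart in any comparison with MEF. The labels describe the procedure as 3c enhanced reprogramming without saying what 3c stands for, and they do not name the factors or the animals. Nothing in them says that replicates came from separate cultures or embryos, so the p-values measure the spread between these libraries.

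Hox genes encode homeodomain transcription factors that lie in the same order along each chromosome as their domains of expression lie along the body axis, with low-numbered paralogue groups anterior and high-numbered groups posterior. Fibroblasts keep a Hox expression pattern that reflects the body site they came from. In pluripotent cells most Hox genes are silent, and Polycomb repressors cover their clusters, which are rich in unmethylated CpG dinucleotides.

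The libraries held 14310290 to 32229388 reads, of which 1034936 to 6261903 fell in the counted regions. Between 11.3 and 22.1% of a MEF library lay in regions, and the ranges were 7.36 to 8.12% for Stage 1, 5.31 to 6.91% for Stage 2 and 4.49 to 5.25% for iPSC. The density of reads outside the regions, multiplied by region length, gives the background expected inside them, and this came to 12.1 to 23.0% of the Hox reads of a MEF library and 43.6 to 51.6% of those of an iPSC library. A library held 532 to 2721 Hox reads. Values below are read counts scaled to library size by TMM (CPM, with separate scaling for the gene table and the region table). The tests are edgeR quasi-likelihood tests over the whole table, and a gene, region or cluster is said to have risen or fallen only at an adjusted p under 0.05. These changes are relative to the middle of all genes, whose median log2 fold change was 0.02 in Stage 1 against MEF and -0.03 in iPSC against MEF. Scaling by all reads of a library instead lowered those medians to -0.96 and -1.68. Regions near 10 fibroblast marker genes summed to 424.2 to 466.3 CPM in iPSC libraries and 717.4 to 746.1 CPM in MEF libraries, with 2 markers higher and 8 lower. The 10 pluripotency marker genes summed to 897.6 to 1017 CPM in iPSC and 253.3 to 288.3 CPM in MEF, with 9 higher and none lower. Regions near 6 blood marker genes summed to 146.6 to 156.8 CPM in iPSC and 92.53 to 95.73 CPM in MEF, and 6 endothelial marker genes to 185.6 to 203.0 CPM in iPSC and 209.4 to 225.0 CPM in MEF, where 3 blood and 2 endothelial markers were higher and 1 and 3 were lower. These sums include the expected background. For fibroblast markers that background was 266 CPM in iPSC and 80.91 CPM in MEF, and for pluripotency markers 250.4 and 76.19 CPM. For blood markers it was 73.26 and 22.29 CPM, and for endothelial markers 119.5 and 36.34 CPM, in the same order. What part the change of cell type has in the Hox values was not tested, and fewer cells with an open site cannot be told apart from a weaker signal per cell.

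The Hox clusters were more densely covered by counted regions than the genome as a whole. On mm10 the HoxA window (chr6:52152417-52270880) had 16.0 regions per 100 kb, HoxB (chr11:96184316-96378254) 10.3, HoxC (chr15:102911131-103046856) 13.3 and HoxD (chr2:74658225-74775142) 16.3, against 4.23 per 100 kb of the genome. Regions took up 9.50%, 4.80%, 6.96% and 8.34% of the A, B, C and D windows, against 2.47% of the genome. Each region of the series was present in at least 1 of the authors' 4 lists of intervals, 1 list per stage. The MEF list contained 65 of the 76 Hox regions, the Stage 1 list 19, the Stage 2 list 24 and the iPSC list 13, which is 85.5, 25.0, 31.6 and 17.1%. For all regions of the series the same shares were 74.8, 31.6, 32.2 and 24.4%. The MEF list alone held 47 Hox regions, 61.8% of them, against 56.3% of all regions, and 6 Hox regions were in all 4 lists. The shares in these lists differed by position within the clusters. All 20 regions nearest to paralogue groups 1 to 3 and 23 of the 24 nearest to groups 4 to 8 were in the MEF list (100 and 95.8%). In the iPSC list were 3 and 1 of them (15 and 4.17%). Of the 32 regions nearest to groups 9 to 13, 22 were in the MEF list, 9 in the Stage 1 list, 15 in the Stage 2 list and 9 in the iPSC list. These are 68.75, 28.1, 46.9 and 28.1%, which apart from Stage 2 are near the shares of all regions. A stage has 1 list, so these counts carry no replicate error.

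Summed over each cluster and relative to other genes, accessibility rose in HoxD and, less firmly, in HoxC by the iPSC stage, and no cluster passed the test for a fall. Per kb of region, HoxA stood highest in MEF at 14.6 CPM and HoxD lowest at 10.8 CPM, while in iPSC HoxD stood highest at 17.5 CPM and HoxB lowest at 13.6 CPM. The HoxD cluster had 156.9, 179.7 and 176.1 CPM in the iPSC libraries, against 107.7, 93.32 and 115.3 CPM in the MEF libraries. Each iPSC library lay above each MEF library. HoxD rose by 0.70 ± 0.10 on the log2 scale (SE, adjusted p = 1.36e-09) and stayed called when any 1 library was left out. With all reads as the scale its change was -0.93, below zero but above the median gene at -1.68. HoxC averaged 147.3 ± 9.51 CPM in iPSC and 124.6 ± 8.43 CPM in MEF (SD, n = 3 each), a rise of 0.25 ± 0.10 (adjusted p = 0.0216) that was no longer called without MEF replicate 1, MEF replicate 2 or iPSC replicate 3, that was -1.38 on the scale of all reads, and that changed sign to -0.39 after subtraction of the expected background. HoxB averaged 126.0 ± 1.46 CPM in iPSC and 109.3 ± 19.9 CPM in MEF, and HoxA 154.9 ± 11.7 CPM in iPSC and 164.5 ± 7.40 CPM in MEF. Neither difference passed the test (log2 0.23 ± 0.12, adjusted p = 0.10, and -0.09 ± 0.10, adjusted p = 0.438).

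**Figure D1:**
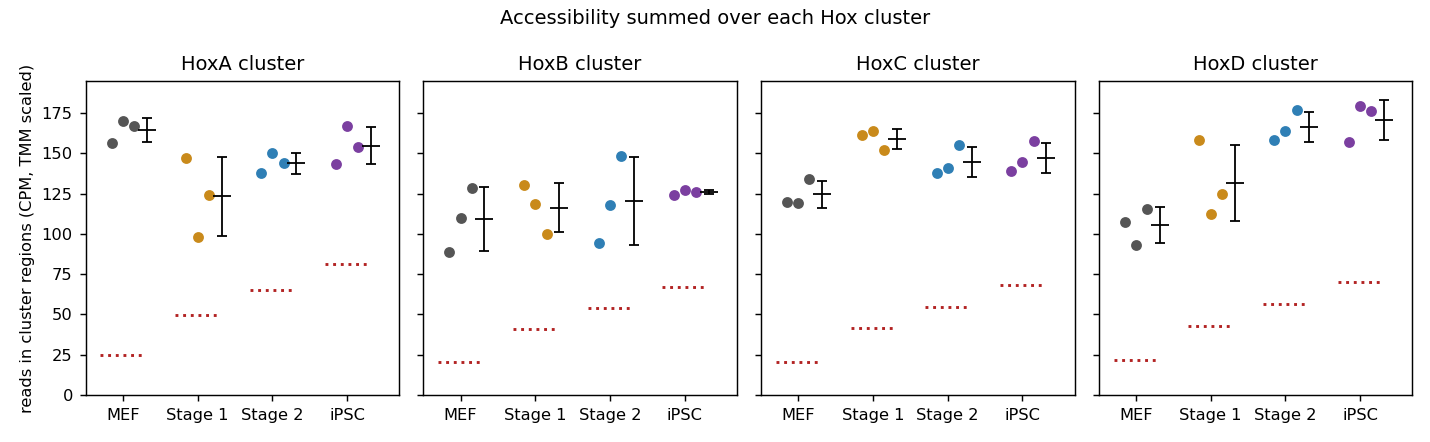
Reads in the regions of each Hox cluster (vertical axis, CPM after TMM scaling) by stage, with 1 point per library, a horizontal bar for the mean, whiskers for the SD of 3 libraries, and a dotted red line for the background expected over the same length. HoxD climbs to 170.9 CPM on average in iPSC while HoxA ends close to its MEF level, and the expected background rises at every stage. With all reads as the scale the 4 clusters are lower in iPSC than in MEF.

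HoxA fell and HoxC rose at Stage 1. Stage 1 libraries had 147.2, 98.36 and 124.5 CPM in HoxA, against 156.2, 170.3 and 167.1 CPM in MEF libraries. The Stage 1 values were spread over a wide range and all lay below the MEF values (log2 -0.40 ± 0.10, adjusted p = 0.000226, called without each library in turn). HoxC had 161.3, 164.2 and 152.3 CPM in Stage 1, against 119.9, 119.5 and 134.3 CPM in MEF. Its groups did not overlap, and the rise of 0.36 ± 0.09 on the log2 scale (adjusted p = 0.000559) was -0.60 with all reads as the scale, where the median gene was at -0.96. HoxD reached 158.2, 112.3 and 125.1 CPM at Stage 1, against 107.7, 93.32 and 115.3 CPM in MEF. The HoxD libraries of these groups overlap, and its rise (log2 0.34 ± 0.10, adjusted p = 0.00304; -0.64 with all reads as the scale) was lost without MEF replicate 2 or Stage 1 replicate 1. With the expected background subtracted it was 0.081. HoxD was also the cluster that passed the test between Stage 2 and Stage 1, at 158.4, 164.1 and 176.7 CPM in Stage 2 against the Stage 1 values above (log2 0.33 ± 0.11, adjusted p = 0.0252). That call was lost without Stage 1 replicate 2 or 3 and without Stage 2 replicate 2 or 3, and DESeq2 gave an adjusted p of 0.0571. Between iPSC and Stage 2 the log2 changes of the 4 clusters lay between 0.02 and 0.10, and adjusted p between 0.607 and 0.922.

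The ratio of reads to the expected background was smaller at each later stage in all 4 clusters. From MEF through Stage 1 and Stage 2 to iPSC, HoxA stood at 6.66, 2.49, 2.21 and 1.91 times its background. HoxD stood at 4.93, 3.07, 2.95 and 2.43 times its background, and so was the lowest of the 4 clusters in MEF and the highest in iPSC. HoxB ended at 1.88 and HoxC at 2.16 times background in iPSC, against 5.35 and 6.00 in MEF. With the background subtracted, iPSC against MEF was -0.92 in HoxA, -0.59 in HoxB, -0.39 in HoxC and 0.26 in HoxD on the log2 scale, values with no test. The reads above background were not lower in every cluster. In HoxD they were 84.04, 88.91, 110.0 and 100.5 CPM from MEF to iPSC, and in HoxC 103.8, 117.7, 89.99 and 79.07 CPM.

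Within a library, a larger share of the Hox reads lay at the posterior end of the clusters in iPSC, Stage 2 and Stage 1 than in MEF. This share does not depend on how libraries are scaled. Regions nearest to groups 9 to 13 held 53.26, 51.02 and 48.12% of the Hox reads in the iPSC libraries, against 39.29, 37.33 and 36.79% in the MEF libraries, with 42.5% of the Hox region length. All iPSC libraries lay above all MEF libraries, and so did the Stage 1 libraries at 47.56, 52.26 and 48.99%. Stage 2 averaged 52.9 ± 1.81% (SD, n = 3), and its libraries overlapped those of both Stage 1 and iPSC. Groups 1 to 3 held 22.4 ± 2.04% of Hox reads in iPSC and 30.8 ± 1.38% in MEF, and groups 4 to 8 held 26.8 ± 0.585% in iPSC and 31.4 ± 0.124% in MEF. Each of these 3 shares gave an exact two-sided permutation p of 0.1 for iPSC against MEF, and likewise for Stage 1 against MEF, which is the smallest value that 3 against 3 libraries can give (adjusted p = 0.14 over 7 shares). Some regions counted for groups 1 to 3 lie among groups 4 to 8, because the annotated Hoxa3, Hoxb3 and Hoxd3 run over other Hox genes. With those spans shortened, the difference of groups 4 to 8 was -7.10 percentage points in iPSC against MEF (-4.64 with the annotated spans) and -4.07 in Stage 1 against MEF (-1.61 with the annotated spans), and that of groups 1 to 3 in Stage 1 against MEF was -7.73 (-10.2 with the annotated spans). With the expected background subtracted, groups 9 to 13 held 58.4 ± 4.72% in iPSC and 36.8 ± 1.92% in MEF. Among the clusters, HoxA held 25.8 ± 1.01% of Hox reads in iPSC and 32.7 ± 1.97% in MEF, and HoxD 28.5 ± 0.630% in iPSC and 21.0 ± 1.94% in MEF (exact p = 0.1, adjusted p = 0.14 for both), whereas the shares of HoxB and HoxC overlapped between iPSC and MEF. No share separated the iPSC from the Stage 2 libraries.

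Among single paralogue groups, the largest gain in share lay in group 13, the genes at the posterior end, with 10 regions and 14.6% of the length. Group 13 held 22.06, 22.89 and 21.47% of Hox reads in iPSC, against 9.15, 9.02 and 9.16% in MEF. The 3 MEF libraries agree to within 0.0785 percentage points (SD), and Stage 1 already stood at 17.79, 24.06 and 17.76%. Group 3 had the lower share in iPSC, with 18.3 ± 2.27% in iPSC and 27.01 ± 1.14% in MEF, and so did group 6, with 8.23 ± 0.552% in iPSC and 13.1 ± 0.135% in MEF. Group 9, which belongs to the posterior class, was also lower without overlap, at 12.7 ± 1.37% in iPSC and 15.3 ± 0.825% in MEF. Group 1, at the anterior end, was higher, at 1.96 ± 0.111% in iPSC and 0.773 ± 0.162% in MEF, on 1 region. Group 8 was also higher without overlap, at 6.18 ± 0.652% in iPSC and 4.93 ± 0.201% in MEF. Group 2 was lower without overlap, at 2.165 ± 0.440% in iPSC and 3.02 ± 0.593% in MEF. The shares of groups 5, 7 and 12 differed by less than the spread between libraries, at 5.74, 1.36 and 3.22% in iPSC and 6.13, 1.23 and 2.89% in MEF. These shares of single groups were chosen after their values were seen and carry no test. Whether this difference was unequal between clusters was not tested. In HoxA, groups 9 to 13 held 38.4 ± 4.92% of the cluster's reads in iPSC and 25.8 ± 2.68% in MEF, and in HoxC 58.3 ± 2.35% in iPSC and 38.2 ± 2.298% in MEF, without overlap between the libraries in either cluster (exact p = 0.1, adjusted p = 0.20 over 4 clusters). In HoxB they held 47.0 ± 6.40% in iPSC and 42.7 ± 3.62% in MEF, and in HoxD 58.2 ± 5.52% in iPSC and 51.0 ± 3.45% in MEF, and there the libraries overlapped (exact p = 0.4 and 0.2).

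**Figure D2:**
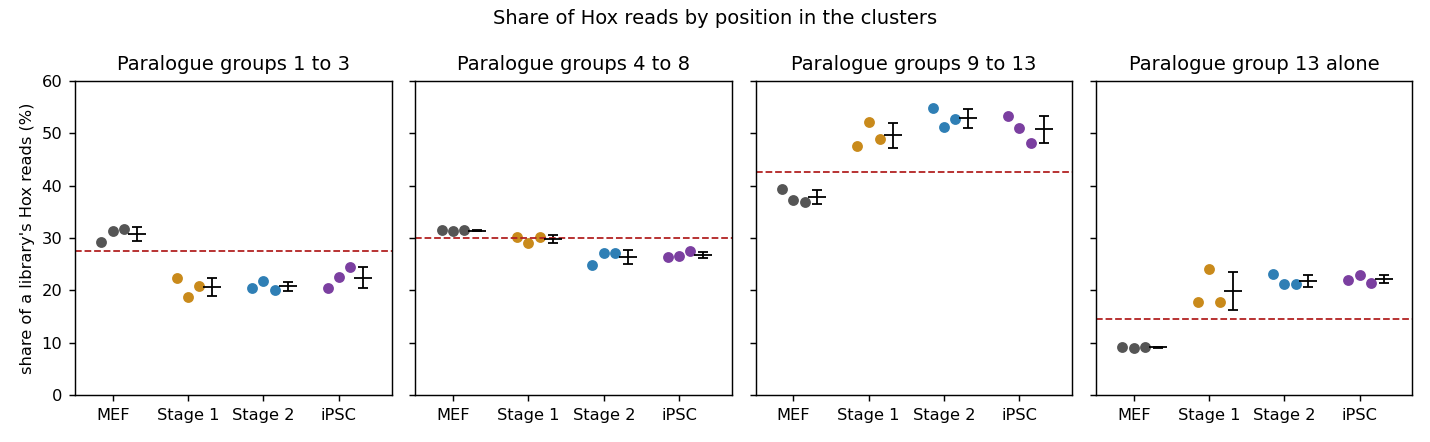
Share of a library's Hox reads (vertical axis, %) in regions nearest to paralogue groups 1 to 3, 4 to 8, 9 to 13 and to group 13 alone, by stage. Points are libraries, bars and whiskers are the mean and SD of 3 libraries, and the dashed red line is the share of the Hox region length. Groups 9 to 13 lie below that line in MEF and above it in the other 3 stages, and group 13 averages 9.11, 19.9, 21.8 and 22.1% over the stages in order.

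Of the 33 Hox genes with a region, 29 had enough reads to be tested, and Hoxa2, Hoxa6, Hoxa11 and Hoxd12 did not. In iPSC against MEF, 12 of the 29 rose and 2 fell (4 without MEF replicate 1; median log2 0.27), where 66.4% of all 16122 tested entries (genes and the 4 cluster sums) were called, 32.7% higher and 33.7% lower. In Stage 1 against MEF, 9 rose and 3 fell (median log2 0.29), against 34.0% and 31.2% of all genes (65.2% called in all). The number that rose is near the rate over all genes, and whether the small number that fell differs from that rate was not tested. By position in iPSC against MEF, 8 of 12 tested genes of groups 9 to 13 rose and none fell, 3 of 12 of groups 4 to 8 rose and 1 fell, and 1 of 5 of groups 1 to 3 rose and 1 fell. At Stage 1 against MEF the counts were 7 higher and 1 lower, 2 higher and 1 lower, and 0 higher and 1 lower in the same order of positions. HoxD held 6 of the 12 genes that rose in iPSC, with 7 of its genes tested. With all reads as the scale the calls in iPSC against MEF became 1 higher and 22 lower. With the expected background subtracted, a value with no test, 17 of the 29 genes were below zero in iPSC against MEF and 11 above (median log2 -0.52; Hoxb13 had no MEF reads above background to form a ratio). By position 7 of 12 genes were above zero in groups 9 to 13, 3 of 12 in groups 4 to 8 and 1 of 5 in groups 1 to 3. Among the posterior genes below zero were Hoxb9 (-1.31), Hoxc10 (-0.96) and Hoxa9 (-0.79).

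**Figure D3:**
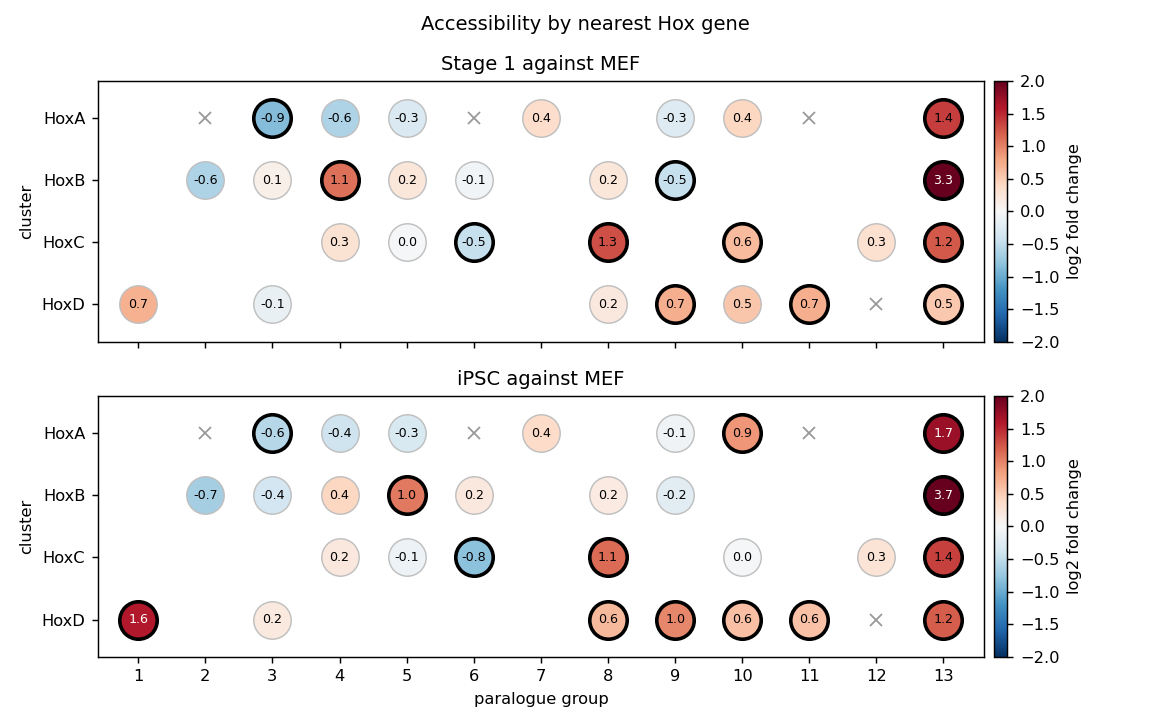
Log2 fold change (colour and printed value) of reads near each Hox gene, by cluster (rows) and paralogue group (columns), for Stage 1 against MEF above and iPSC against MEF below. A thick outline marks an adjusted p under 0.05, a cross a gene with too few reads to test, and colours stop at -2 and 2. Red outlined circles crowd the right side, where all 4 genes of group 13 rose in both comparisons; on the scale of all reads only Hoxb13 of the genes that rose in iPSC against MEF stays called higher. The regions counted for Hoxb13 lie more than 1 kb from that gene.

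All 4 genes of group 13, the terminal genes of the clusters, rose at Stage 1 and in iPSC against MEF; on the scale of all reads, Hoxd13 was below zero in both comparisons and Hoxc13 in iPSC. Hoxb13, which acts in the tail bud and in the prostate, had 1.22, 1.57 and 2.55 CPM in MEF, 20.5, 18.6 and 10.7 CPM in Stage 1, 19.7, 22.7 and 24.4 CPM in Stage 2, and 24.3, 22.9 and 17.3 CPM in iPSC. Both of its regions lie more than 1 kb from the gene, so none of these reads lie on Hoxb13 itself. Its 22 MEF reads, over the 3 libraries, are 0.812 times the background expected there, and its level in iPSC was 2.98 times background. Each later library lay far above each MEF library. The change was 3.70 ± 0.33 in iPSC against MEF (adjusted p = 1.08e-18) and 3.26 ± 0.35 in Stage 1 against MEF (adjusted p = 9.49e-15) on the log2 scale. It was the Hox gene that stayed called higher on the scale of all reads (2.07 in iPSC against MEF). Hoxc13, which is needed for hair and nails, had 57.5, 56.2 and 62.5 CPM in iPSC, against 22.2, 22.6 and 23.0 CPM in MEF. Its libraries of 1 group lay close together and the groups far apart (log2 1.37 ± 0.15, adjusted p = 6.69e-14; -0.27 on the scale of all reads), and the Stage 1 libraries had 50.4, 64.0 and 46.1 CPM. Hoxa13, a gene of the distal limb and the urogenital tract, had 10.3, 11.9 and 8.66 CPM in iPSC, against 2.43, 4.33 and 2.19 CPM in MEF (log2 1.73 ± 0.36, adjusted p = 1.38e-05). On the scale of all reads this change of Hoxa13 was 0.11 and not called (edgeR adjusted p = 0.79). Hoxd13, which patterns the digits, had 17.4, 15.9 and 22.3 CPM in MEF, 25.97, 27.8 and 25.3 CPM in Stage 1, 35.0, 33.8 and 42.6 CPM in Stage 2, and 32.4, 50.6 and 43.3 CPM in iPSC. No later library overlapped MEF. It rose by 0.54 ± 0.19 at Stage 1 against MEF (adjusted p = 0.0108, lost without MEF replicate 2) and 1.22 ± 0.18 in iPSC against MEF (adjusted p = 2.27e-09; -0.42 on the scale of all reads).

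Of groups 9 to 12, Hoxd9, Hoxd10, Hoxd11 and Hoxa10, which pattern the trunk behind the ribs, the limbs and, for Hoxa10, the uterus, rose in iPSC against MEF. Hoxd9 had 15.5, 17.4 and 12.5 CPM in iPSC, against 7.99, 6.69 and 9.12 CPM in MEF (log2 0.97 ± 0.27, adjusted p = 0.00118). Hoxa10 had 23.6, 23.7 and 16.4 CPM in iPSC, against 14.2, 9.84 and 10.2 CPM in MEF (log2 0.88 ± 0.23, adjusted p = 0.00057), but its rise rests on 1 region beyond 1 kb of the gene and shrank to 0.22 (adjusted p = 0.535) when that region was not linked. The iPSC libraries of both genes lay above their MEF libraries. Hoxd11 (log2 0.58 ± 0.21, adjusted p = 0.0128) was no longer called without MEF replicate 2 or iPSC replicate 1, and Hoxd10 (0.60 ± 0.28, adjusted p = 0.0475), whose libraries overlapped, was lost without any of 5 single libraries. With all reads as the scale these 4 changes were -0.67, -0.78, -1.07 and -1.05, for Hoxd9, Hoxa10, Hoxd11 and Hoxd10. With the expected background subtracted they were 0.66, 0.60, 0.048 and 0.35 in the same order. At Stage 1 against MEF, Hoxd9 (0.73), Hoxd11 (0.72) and Hoxc10 (0.63), a gene of lumbar motor neurons, passed the test, though on the scale of all reads they were -0.25, -0.26 and -0.32, and Hoxb9, a gene of the rib-bearing trunk, fell by 0.46. Hoxd9, Hoxc10 and Hoxb9 were each lost without at least 2 single libraries, and Hoxd11 without Stage 1 replicate 1.

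In groups 4 to 8 the changes went both ways. Hoxc6, which acts in brachial motor neurons and the thoracic skeleton, had 26.5, 26.1 and 29.8 CPM in iPSC, against 49.0, 44.9 and 51.1 CPM in MEF. The groups did not overlap, and it was the Hox gene of groups 4 to 8 that fell (log2 -0.81 ± 0.17, adjusted p = 9.92e-06), its Stage 1 libraries lay between at 30.7, 32.5 and 40.4 CPM (log2 -0.46, adjusted p = 0.00637, lost without Stage 1 replicate 1), and in iPSC it stood at 1.34 times its expected background, against 7.72 times in MEF. Hoxb5, a gene of the vagal neural crest, had 11.1, 17.4 and 14.4 CPM in iPSC, against 6.43, 5.91 and 9.12 CPM in MEF (log2 1.05 ± 0.29, adjusted p = 0.000824; -0.58 on the scale of all reads). At Stage 1 against MEF it did not pass the test (log2 0.25 ± 0.32, adjusted p = 0.508). Hoxb4, known for the expansion of blood stem cells, had 17.3, 9.28 and 11.4 CPM in Stage 1, against 4.34, 6.30 and 8.03 CPM in MEF, and rose there (log2 1.10 ± 0.31, adjusted p = 0.00101), while its iPSC libraries at 9.58, 4.75 and 9.62 CPM overlapped MEF. On the scale of all reads the Stage 1 change of Hoxb4 was 0.15 and not called (edgeR adjusted p = 0.71). Hoxc8, a gene of the thoracic axis, had 7.37, 10.3 and 6.73 CPM in iPSC, against 3.65, 3.15 and 4.74 CPM in MEF (log2 1.13 ± 0.37, adjusted p = 0.00492, lost without iPSC replicate 2; -0.49 on the scale of all reads). Its 1 region (chr15:102987351-102987800) lies more than 1 kb from the gene, and when regions were linked to every gene within 10 kb its change turned to -0.56. At Stage 1 against MEF Hoxc8 rose by 1.30 ± 0.35 (adjusted p = 0.00073), which turned to -0.51 with those links. On the scale of all reads this Stage 1 change was 0.33 and not called (edgeR adjusted p = 0.44). Hoxd8 rose by 0.65 ± 0.25 (adjusted p = 0.0201, lost without MEF replicate 2, iPSC replicate 1 or iPSC replicate 3), and was -1.001 on the scale of all reads and 0.26 with the background subtracted.

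Of groups 1 to 3, Hoxa3, which directs formation of the thymus and parathyroid, fell and Hoxd1, which acts in pain-sensing neurons of the mouse, rose. Hoxa3 had 8 regions and the most reads of any Hox gene in MEF. It had 77.5, 92.5 and 88.3 CPM in MEF, 63.0, 31.6 and 44.9 CPM in Stage 1, 47.4, 47.9 and 48.9 CPM in Stage 2, and 44.2, 66.5 and 64.5 CPM in iPSC. Every iPSC and every Stage 1 library lay below every MEF library (log2 -0.57 ± 0.14, adjusted p = 0.000166 for iPSC, and -0.87 ± 0.14, adjusted p = 5.84e-08 for Stage 1). Its annotated span runs over other Hox genes, and with that span shortened the changes were -0.71 and -0.92. Hoxd1 had 4.34, 2.95 and 4.38 CPM in MEF, 5.51, 4.64 and 8.21 CPM in Stage 1, 10.2, 12.9 and 13.97 CPM in Stage 2, and 11.8, 11.9 and 11.5 CPM in iPSC. All later libraries lay above MEF, on 1 region (iPSC against MEF log2 1.6 ± 0.33, adjusted p = 1.43e-05; -0.04 on the scale of all reads). Hoxb2, a hindbrain gene, had 7.37, 6.33 and 6.73 CPM in iPSC, against 9.21, 10.4 and 14.96 CPM in MEF, and did not pass the test (adjusted p = 0.0598). Every iPSC library of Hoxb2 lay below every MEF library. On the scale of all reads its change was -2.30 and called lower (edgeR adjusted p = 1.52e-09), where the median gene was at -1.68. Hoxb2 stood at 1.18 times its expected background in iPSC, against 6.57 times in MEF. Hoxb3 and Hoxd3, hindbrain and neck genes, overlapped between iPSC and MEF. With the expected background subtracted, a value with no test, iPSC against MEF was -3.24 for Hoxb2, -2.11 for Hoxb3 and -1.84 for Hoxa3. It was -0.56 for Hoxd3 and 1.54 for Hoxd1.

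After Stage 1 no Hox gene passed the test at either step with regions linked to the nearest gene. In Stage 2 against Stage 1 the number of genes that rose was 4 with links to every gene within 10 kb, 2 with links within 1 kb and 1 without MEF replicate 1, and 1 gene fell without Stage 2 replicate 3. With the nearest-gene links and all libraries, none of the 29 genes was called by edgeR or by DESeq2, and 3 had an unadjusted edgeR p under 0.05 (Hoxc6, Hoxd1 and Hoxd13), where 15.0% of all genes were called (7.04% higher and 7.95% lower). In iPSC against Stage 2, none was called by edgeR and 1 had an unadjusted edgeR p under 0.05 (Hoxb5), where 6.88% of all genes were called (3.77% higher and 3.11% lower). DESeq2 called none there either, but it gave an adjusted p only for Hoxa3, Hoxb9, Hoxc6, Hoxc13 and Hoxd3. Its lack of calls does not cover the other genes. Of the 51 Hox regions tested, 3 rose in Stage 2 against Stage 1 and none fell, against 6.14% and 4.3% of the 71069 regions tested in the series (10.4% in all). They were a region between Hoxc13 and Hoxc12 (chr15:102931501-102932200, log2 1.00 ± 0.30, adjusted p = 0.0201), the start of Hoxd13 (chr2:74667751-74668450, log2 0.97 ± 0.31, adjusted p = 0.0278) and a region in Hoxd11 (chr2:74679301-74679850, log2 1.65 ± 0.45, adjusted p = 0.00766). Each was lost without at least 3 single libraries, and DESeq2 called none of them. Without Stage 1 replicate 1 or Stage 2 replicate 1 the count was 1, and without Stage 1 replicate 3 or Stage 2 replicate 3 it was 0. The Hoxd11 region had 9.11, 6.80 and 6.02 CPM in MEF, 2.27, 3.47 and 3.05 CPM in Stage 1, 7.71, 9.001 and 11.4 CPM in Stage 2, and 7.11, 3.77 and 4.54 CPM in iPSC. Stage 1 lay below MEF and below Stage 2 without overlap, so that it fell at Stage 1 (log2 -1.35 against MEF, adjusted p = 0.00234) before it rose. In iPSC against Stage 2 no Hox region was called by edgeR or DESeq2, 4 had an unadjusted edgeR p under 0.05, and 1.61% of all regions were called (0.545% higher and 1.06% lower).

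Single regions of the clusters moved in both directions. In iPSC against MEF, 13 of 51 tested Hox regions rose and 7 fell (11 without MEF replicate 3), against 40.8% and 40.8% of all regions (81.7% called), and in Stage 1 against MEF 14 rose and 13 fell, against 40.2% and 40.3% (80.5% called). Of the 24 tested regions nearest to groups 9 to 13, 10 rose and 2 fell in iPSC, so the number that rose is near the rate over all regions. Of the 16 nearest to groups 4 to 8, 2 rose and 2 fell, and of the 11 nearest to groups 1 to 3, 1 rose and 3 fell. The largest rise was in a region 3616 bp from Hoxb13, on the side away from the other HoxB genes (chr11:96190051-96190700), with 16.4, 14.3 and 9.99 CPM in iPSC, against 0.990, 0.907 and 1.21 CPM in MEF (log2 3.70 ± 0.41, adjusted p = 9.85e-14). The stage lists held it from Stage 1 on and not in MEF. Its MEF reads were not above the expected background, so the size of the rise is limited by depth. A second region counted for Hoxb13, outside that gene and inside the long noncoding RNA gene Gm30134 (chr11:96202801-96203150), rose by 2.98 ± 0.52 (adjusted p = 2.81e-07). The region between Hoxc13 and Hoxc12 had 2.77, 2.95 and 3.21 CPM in MEF, 10.6, 11.3 and 6.10 CPM in Stage 1, 16.5, 21.0 and 16.8 CPM in Stage 2, and 19.2, 15.1 and 23.6 CPM in iPSC (iPSC against MEF log2 2.68 ± 0.31, adjusted p = 1.16e-12). Each step up to Stage 2 passed the test, while the region at the start of Hoxc13 itself (chr15:102920451-102921200) was in all 4 stage lists and was highest at Stage 1, at 32.5, 39.1 and 31.1 CPM, against 15.45, 14.96 and 11.24 CPM in MEF.

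**Figure D4:**
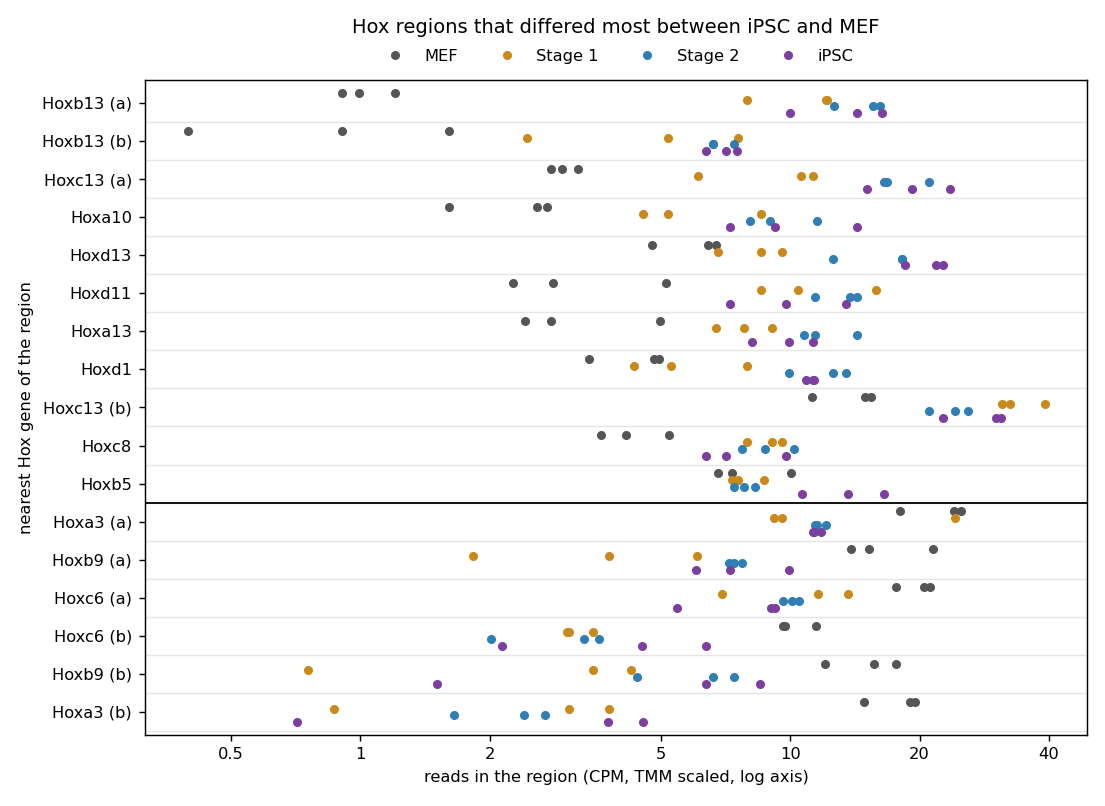
Reads (horizontal log axis, CPM after TMM scaling) in the 17 Hox regions that differed most between iPSC and MEF, up to 3 rises and 3 falls per cluster, named by the nearest Hox gene and lettered where a gene has more than 1. Points are libraries, coloured by stage. Above the black line the iPSC libraries lie to the right of MEF, and below it to the left; with all reads as the scale the regions near Hoxb5, Hoxc13 (b), Hoxc8 and Hoxd1 change direction.

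The deepest falls lay in Hoxa3, Hoxb9 and Hoxc6. A region in Hoxa3 (chr6:52185001-52185700), which also overlaps a long noncoding RNA gene, had 0.711, 3.77 and 4.54 CPM in iPSC, against 19.02, 19.5 and 14.9 CPM in MEF (log2 -2.63 ± 0.38, adjusted p = 1.74e-09). It held 11 reads over the 3 iPSC libraries and stood at 0.624 times its expected background there, so the size of the fall is limited by depth. Hoxb9 had regions that moved apart. A region in the gene Gm53, between Hoxb13 and Hoxb9 (chr11:96260101-96260800), fell by 1.43 (SE 0.35, adjusted p = 0.000128) and a region in Hoxb9 (chr11:96270851-96271500) fell by 1.11 (SE 0.30, adjusted p = 0.000492), while another nearest to Hoxb9 (chr11:96250951-96251300), named after its values were seen, rose by 1.56 (adjusted p = 0.00123). Summed over its 6 regions, Hoxb9 did not pass the test in iPSC against MEF (log2 -0.22 ± 0.16, adjusted p = 0.225). Within Hoxc6, neighbouring regions at chr15:102997901-102998350 and chr15:102999101-102999700 fell by 1.30 and 1.29 (adjusted p = 0.000918 and 2.33e-05).

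Promoters of Hoxa13, Hoxd13 and Hoxd1 are shown because regions that rose lie on them. RefSeq (GRCm38.p6) gave windows from 250 bases before to 50 bases after the start for 22 of the 38 genes, and none for Hoxb13, Hoxc13 and Hoxc6. The 3 sequences run 5′ to 3′ along the gene, with CpG dinucleotides in capitals. Hoxa13 is at chr6:52260831-52261130 on the minus strand, Hoxd13 at chr2:74667975-74668274 and Hoxd1 at chr2:74762730-74763029, both on the plus strand; Hoxd13 was added after its values were seen.
Hoxa13: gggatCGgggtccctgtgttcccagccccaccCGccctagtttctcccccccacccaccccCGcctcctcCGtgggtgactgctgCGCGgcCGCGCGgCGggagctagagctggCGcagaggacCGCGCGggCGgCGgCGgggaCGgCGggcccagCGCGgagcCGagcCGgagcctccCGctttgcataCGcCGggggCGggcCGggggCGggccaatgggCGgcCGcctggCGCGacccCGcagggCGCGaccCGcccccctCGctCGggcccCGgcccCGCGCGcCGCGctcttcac
Hoxd13: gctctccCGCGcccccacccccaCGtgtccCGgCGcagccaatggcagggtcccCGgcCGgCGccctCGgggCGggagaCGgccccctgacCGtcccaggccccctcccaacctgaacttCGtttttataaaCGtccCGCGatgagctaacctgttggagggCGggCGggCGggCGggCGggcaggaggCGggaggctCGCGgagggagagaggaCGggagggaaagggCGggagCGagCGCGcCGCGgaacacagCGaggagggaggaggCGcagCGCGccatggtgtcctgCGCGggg
Hoxd1: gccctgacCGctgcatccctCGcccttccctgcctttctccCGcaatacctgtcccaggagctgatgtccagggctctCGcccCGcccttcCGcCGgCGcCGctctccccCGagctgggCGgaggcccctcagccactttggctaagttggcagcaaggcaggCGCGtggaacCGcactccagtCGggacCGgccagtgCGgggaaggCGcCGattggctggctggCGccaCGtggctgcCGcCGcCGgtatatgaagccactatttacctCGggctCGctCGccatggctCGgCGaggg
The Hoxa13 window holds 45 CpG dinucleotides, Hoxd13 37 and Hoxd1 29, where the 24 Hox windows have a median of 14.5. The window of Hoxa3, which fell, holds 20 and that of Hoxa5, which was not called, 29. All 32851 windows of the table have a median of 7. The region over the Hoxd13 start (chr2:74667751-74668450) had 18.5, 21.9 and 22.7 CPM in iPSC, against 6.74, 4.76 and 6.43 CPM in MEF (log2 1.80 ± 0.27, adjusted p = 4.62e-09). That over the Hoxa13 start (chr6:52260601-52261150) had 9.95, 11.3 and 8.17 CPM in iPSC, against 2.77, 4.99 and 2.41 CPM in MEF (log2 1.48 ± 0.36, adjusted p = 0.000116). That over the Hoxd1 start (chr2:74762701-74763200) had 11.4, 11.3 and 10.9 CPM in iPSC, against 4.95, 3.4 and 4.82 CPM in MEF (log2 1.35 ± 0.33, adjusted p = 0.000147; -0.04 on the scale of all reads). Searched on both strands, the Pbx and Hox motif TGATNNAT was in 4 of the 24 Hox windows, those of Hoxa2, Hoxb1, Hoxb8 and Hoxd11 (16.7%, against 8.85% of all windows). The AP-1 motif TGANTCA was in 1 (4.17%, against 7.81%), the Hoxd11 window chr2:74679308-74679607, inside the region that fell at Stage 1 and rose at Stage 2. The octamer ATGCAAAT was in none (against 1.74% of all windows).

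The clusters also hold microRNA genes, whose mature sequences are shown because pairs of them share a seed across clusters (RefSeq GRCm38.p6, seed bases 2 to 8 in capitals).
miR-196b-5p (HoxA): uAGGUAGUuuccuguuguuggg
miR-196a-5p (HoxB and HoxC): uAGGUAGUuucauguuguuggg
miR-10a-5p (HoxB): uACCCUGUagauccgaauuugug
miR-10b-5p (HoxD): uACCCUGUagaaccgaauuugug
The miR-196 family represses Hox transcripts, and the miR-10 genes sit beside group 4 genes. The Mir196b hairpin (chr6:52230081-52230165, minus strand) lies 81 bp from a region in the long noncoding RNA gene Gm52902 (chr6:52229601-52230000), which had 9.24, 14.3 and 7.26 CPM in iPSC, against 2.58, 2.72 and 1.61 CPM in MEF (log2 2.08 ± 0.38, adjusted p = 7.08e-07). This is the region behind the rise counted for Hoxa10. The Mir196a-1 hairpin in HoxB (chr11:96265164-96265265, plus strand), which carries the same seed AGGUAGU, has as its nearest region the Gm53 region that fell, 4364 bp away. For Mir196a-2, Mir10a and Mir10b the nearest regions were 1150, 1127 and 9820 bp away and had 2.37, 7.61 and 11.5 CPM in iPSC and 2.72, 7.01 and 11.5 CPM in MEF.

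Set against the regions around it, HoxD had a higher read density in iPSC than in MEF, and HoxB a higher one by a smaller amount, neither passing the test after adjustment. The reads per kb of region in a window were divided by those in the regions of 500 kb on both sides, a ratio within a library. HoxD had ratios of 1.42 ± 0.0893 in iPSC and 0.820 ± 0.0791 in MEF (SD, n = 3 each), with Stage 1 at 1.48 ± 0.393 and Stage 2 at 1.90 ± 0.209. With flanks of 500 kb the HoxD ratio was below 1 in each MEF library and above 1 in each later library. With flanks of 250 or 1000 kb every MEF library stayed below 1, but 2 Stage 1 libraries were below 1 too, and with 1000 kb 1 iPSC library. HoxB had 0.964 ± 0.0378 in iPSC and 0.662 ± 0.0646 in MEF, and HoxC 0.763 ± 0.0789 in iPSC and 0.615 ± 0.0523 in MEF. For these 3 clusters each iPSC library lay above each MEF library (exact two-sided permutation p = 0.1, the smallest possible, adjusted p = 0.133 over 4 clusters). With the expected background subtracted from window and flank, HoxC had ratios of 0.547, 0.619 and 0.747 in iPSC, against 0.557, 0.541 and 0.618 in MEF, which overlap (exact permutation p = 0.4). HoxB then had 0.924 ± 0.0823 in iPSC and 0.617 ± 0.0576 in MEF, and HoxD 2.03 ± 0.222 in iPSC and 0.788 ± 0.0840 in MEF, still without overlap. HoxA had 1.08 ± 0.163 in iPSC and 1.18 ± 0.0239 in MEF, which overlap (exact p = 0.4). With flanks of 250 kb the HoxD ratio was 1.06 ± 0.0620 in iPSC and 0.782 ± 0.0886 in MEF, so its size depends on the width of the flank.

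**Figure D5:**
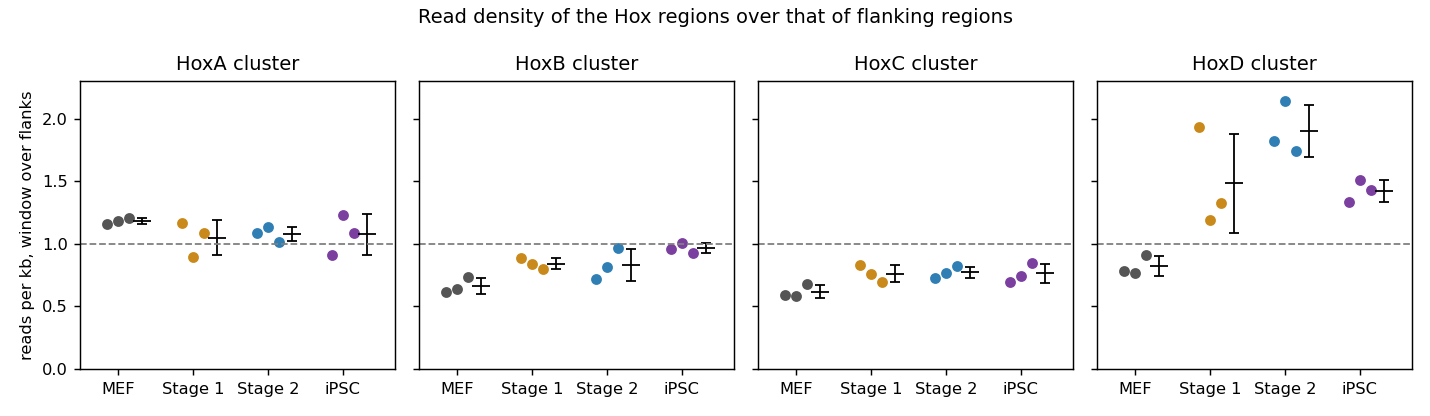
Reads per kb of region in each Hox window divided by reads per kb in the regions within 500 kb on both sides (vertical axis, a ratio with no unit), by stage, with 1 point per library, bars for means and whiskers for the SD of 3 libraries. The dashed line marks equal density. HoxD lies below 1 in every MEF library and above it in every later library, and HoxA overlaps between iPSC and MEF.

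Genes that work with or beside the Hox genes moved in different ways. Of 9 ParaHox and Hox-linked homeobox genes, relatives of the clusters and neighbours of HoxA and HoxD, 8 were tested and all 8 rose both in iPSC against MEF (median log2 1.84; 32.7% of all genes rose) and in Stage 1 against MEF (median 1.95; 34.0% of all genes rose). Their medians stayed above zero with all reads as the scale, at 0.23 and 1.00. Cdx4, a caudal-type factor that activates Hox genes in the posterior embryo, had 17.7, 16.6 and 16.4 CPM in iPSC, against 0.348, 0.197 and 0.365 CPM in MEF (log2 5.59 ± 0.45, adjusted p = 6.12e-21). Its MEF mean of 0.303 CPM lay below the expected background of 1.54 CPM, so the size of the rise is limited by depth. Gsx2, a forebrain ParaHox gene, had 53.0, 61.7 and 46.2 CPM in iPSC, against 4.87, 6.10 and 9.49 CPM in MEF (log2 3.08 ± 0.19, adjusted p = 9.90e-28). The 9 TALE homeodomain genes, whose products bind DNA together with Hox proteins, included more that fell: 1 rose and 6 fell in iPSC against MEF (median log2 -0.28), where 33.7% of all genes fell. Pknox1 fell by 1.05 (SE 0.13, adjusted p = 1.65e-11), and Meis2 rose by 0.69 (SE 0.09, adjusted p = 1.41e-10), though it was -0.95 with all reads as the scale. At Stage 1 against MEF 1 TALE gene rose and 3 fell, where 31.2% of all genes fell.

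Other lists held genes that rose and genes that fell, in counts to be read against the 32.7% of all genes that rose and 33.7% that fell in iPSC against MEF (34.0% and 31.2% in Stage 1 against MEF). Of 12 genes that neighbour the clusters, 3 rose and 3 fell in iPSC against MEF (median log2 0.02), among them Smug1, a uracil DNA glycosylase beside HoxC (0.71 ± 0.13, adjusted p = 8.90e-07; -0.93 with all reads as the scale), and Calcoco1, an autophagy receptor (-0.87 ± 0.16, adjusted p = 8.62e-07). At Stage 1, 2 rose and 3 fell. Of 16 tested genes of the retinoic acid pathway, which switches on Hox genes in the embryo, 7 rose and 4 fell in iPSC (median log2 0.17), and 7 rose and 6 fell at Stage 1. Rxrg, a retinoid X receptor, rose by 1.44 (SE 0.15, adjusted p = 1.66e-14; -0.20 with all reads as the scale), and Stra6, the retinol uptake receptor, fell by 2.38 (SE 0.35, adjusted p = 2.43e-09). Of 28 Polycomb and trithorax genes, which hold Hox genes silent or active, 6 rose and 11 fell in iPSC (median log2 -0.17), and 8 rose and 7 fell at Stage 1. Pcgf6, a subunit of a variant Polycomb complex, rose by 1.32 (SE 0.21, adjusted p = 2.19e-08; -0.32 with all reads as the scale), and Ash1l, a trithorax-group methyltransferase, fell by 1.48 (SE 0.23, adjusted p = 2.88e-08). In iPSC, Ash1l averaged 10.85 CPM against an expected background of 12.99 CPM, and Stra6 3.66 CPM against 5.05 CPM. Both lay below their background, so the sizes of these falls are limited by depth. All values of these lists describe regions near the genes and not their transcripts.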

How the data were processed

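ATAC-seq libraries of 4 groups (n = 3 each) were analysed. The deposited files hold raw whole-number read counts per region, 1 file per library, made by the authors. The tools listed, in no order or role, are HTSeq 0.5.4p3, Bowtie2 2.2.6, DESeq2 1.12.4, SAMtools 0.1.19 and Picard 2.6.0 with build mm10, per the submitters' processing notes. The peak caller and any shift of reads for the transposase are not given in the sources used here. The deposited interval lists, 1 per stage, give other values only: the number of replicates holding an interval, 3 in every row. Rows for reads outside regions and for ambiguous reads (0.0311 to 0.230% of a library) stayed out of library sizes.

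Counts were summed by nearest protein-coding gene (gene body within 10 kb; inside the Hox windows the nearest Hox gene) and by cluster. RefSeq annotation of GRCm38.p6, the same assembly as mm10, gave gene positions. edgeR 4.0.16 in R 4.3.3 fitted 1 quasi-likelihood model to all 12 libraries, with TMM factors, a filter on low rows (filterByExpr with min.count at 10 and min.total.count at 15) and Benjamini-Hochberg adjustment over the whole table (16122 entries, the genes and the 4 cluster sums, or 71069 regions); DESeq2 1.42.0 was an alternative. The code was tested on simulated data with few changed features and no difference in background between groups. That test does not cover the scaling of these data. Shares and flank ratios were compared by exact permutation tests over libraries. A promoter match is a description of letters in a window, and no match says nothing of the factor.

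All pairs of replicates differed beyond sampling noise (chi-square per degree of freedom 1.03 to 2.13). The regions named are, per cluster, the up to 3 largest rises and falls in iPSC against MEF that were called, did not overlap between libraries and reached a mean of 2 log2 CPM in the higher group. Of the lists of related genes, the 2 called genes with the largest change were named. The members and lists were chosen with earlier results of these data known. Alternatives covered scaling, filtering, tool, replicate block, each library left out, linking of regions, window, flank and background, and the background subtraction of genes, regions, shares and flank ratios, the shortening of long gene spans and the use of all regions of the windows were chosen after seeing the data.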

Additional observations from a re-analysis of the deposited data

How the results depend on the processing

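With all reads of a library as the scale in place of TMM, HoxA was -0.14 in Stage 2 against Stage 1, -0.20 in iPSC against Stage 2 and -1.72 in iPSC against MEF (now called lower). HoxB was -0.83, -0.33, -0.22 and -1.38 in Stage 1 against MEF, Stage 2 against Stage 1, iPSC against Stage 2 and iPSC against MEF. HoxC was -0.60, -0.28 and -1.385 in Stage 1 against MEF, iPSC against Stage 2 and iPSC against MEF, and HoxD -0.64, -0.027, -0.27 and -0.93 in the 4 comparisons. Each TMM value had been above zero except HoxA in iPSC against MEF. Hox genes called higher and lower became 1 and 14 in Stage 1 against MEF and 1 and 22 in iPSC against MEF, and Hox regions 4 and 33, and 3 and 52; in Stage 2 against Stage 1 regions became 0 and 1. In iPSC against MEF the genes whose rise turned negative were Hoxa10 (-0.78), Hoxb5 (-0.58), Hoxc8 (-0.49), Hoxc13 (-0.27), Hoxd1 (-0.038), Hoxd8 (-1.001), Hoxd9 (-0.67), Hoxd10 (-1.05), Hoxd11 (-1.07), Hoxd13 (-0.42), Pcgf6 (-0.32), Meis2 (-0.95), Smug1 (-0.93) and Rxrg (-0.20), and the regions those near Hoxb5 (-0.58), Hoxc13 (-0.44), Hoxc8 (-0.49) and Hoxd1 (-0.039). In Stage 1 against MEF they were Hoxc10 (-0.32), Hoxd9 (-0.25), Hoxd11 (-0.26) and Hoxd13 (-0.42).

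Subtraction of the expected background gave cluster values in Stage 1 against MEF of -0.92 for HoxA, -0.24 for HoxB, 0.18 for HoxC and 0.081 for HoxD, and in Stage 2 against Stage 1 of -0.39 for HoxC. In iPSC against Stage 2 it gave -0.10 for HoxA, -0.19 for HoxC and -0.13 for HoxD, and in iPSC against MEF -0.92, -0.59, -0.39 and 0.26 for HoxA to HoxD. Differences in shares, in percentage points, became in Stage 1 against MEF -13.2 for HoxA, 8.69 for HoxC, -14.5 for groups 1 to 3 and 16.5 for groups 9 to 13. In iPSC against MEF they became -10.1 for HoxA, 12 for HoxD, -13.8, -7.85 and 21.6 for groups 1 to 3, 4 to 8 and 9 to 13. The 6 regions found in all 4 stage lists lie 2 each in HoxA, HoxC and HoxD, so a cluster value from them rests on 2 regions. With these regions alone, HoxA was -0.24 in Stage 1 against MEF (no longer called) and -0.23 in Stage 2 against Stage 1, HoxC -0.54 there (now called), and HoxD 0.29, 0.49 (neither called) and -0.34 in the first 3 comparisons. Without the 10 kb around the clusters HoxB was -0.029 in Stage 1 against MEF and -0.0071 in Stage 2 against Stage 1. By DESeq2, HoxD was 0.35 in Stage 2 against Stage 1 and not called, and 0 regions rose there. Without the filter on low rows, 22 regions rose and 8 fell in Stage 1 against MEF, and 1 rose in Stage 2 against Stage 1.

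Linking regions to every gene within 10 kb gave 7 genes lower in Stage 1 against MEF, 4 higher in Stage 2 against Stage 1 and 5 lower in iPSC against MEF, with Hoxc8 at -0.51 in Stage 1 against MEF and -0.56 in iPSC against MEF. Linking within 1 kb gave 2 genes higher in Stage 2 against Stage 1. Shortened long gene spans gave 5 genes lower in Stage 1 against MEF, and share differences of -7.73 (groups 1 to 3) and -4.07 (groups 4 to 8) in Stage 1 against MEF and -7.10 (groups 4 to 8) in iPSC against MEF. Flanks of 250 kb gave HoxD 0.43 in Stage 1 against MEF and 0.44 in iPSC against MEF, flanks of 1000 kb gave HoxB 0.13 in Stage 1 against MEF, and subtraction of the background gave the HoxD flank difference as 1.24 in Stage 1 against MEF and 1.36 in iPSC against MEF. The cause of these differences was not tested.

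Leaving out single libraries gave ranges in Stage 1 against MEF of -0.036 to 0.22 for HoxB and 0.19 to 0.43 for HoxD. In Stage 2 against Stage 1 they were 0.097 to 0.35 for HoxA, -0.12 to 0.21 for HoxB and 0.25 to 0.47 for HoxD. In iPSC against Stage 2 they were -0.081 to 0.25 for HoxB, -0.026 to 0.070 for HoxC and -0.0048 to 0.099 for HoxD, and in iPSC against MEF 0.090 to 0.33 for HoxB and 0.20 to 0.29 for HoxC. In Stage 2 against Stage 1 from 0 to 3 regions rose and 0 to 2 fell, and 0 to 1 genes rose and 0 to 1 fell. In iPSC against MEF 6 to 11 regions and 2 to 4 genes fell. The 11 regions were reached without MEF replicate 3 and the 4 genes without MEF replicate 1.

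With a replicate block, all 85 results tried stayed on their side of the threshold (HoxD in iPSC against MEF at 0.70). Libraries of the same number did not deviate together (correlations from -0.0865 to 0.0941 between groups, with 5 of 12 libraries closest to their own number). The numbers gave no sign of pairing. With 3 libraries per group this cannot show whether libraries of the same number shared a culture or batch. Depth limits single regions most: 25 of the 76 had too few reads to test.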
